A study of Homo sapiens with 6 samples.

Results

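The NKG2D ligands are the 8 human genes MICA, MICB, ULBP1, ULBP2, ULBP3, RAET1E, RAET1G and RAET1L, and all 8 were found by symbol among the 32192 genes of the count table. The family was chosen from the APEX1-OE against Ctrl values of these same libraries, in which RAET1L stood apart, so every difference between the conditions is given for the ligands as a description, and the calls among them are counted without drawing anything from them. A549 cells are an established line of human lung adenocarcinoma. RNA-seq was carried out on 3 libraries of A549 cells transfected with a plasmid carrying APEX1 (APEX1-OE) and on 3 libraries of cells given the control plasmid (Ctrl). APEX1 is a base excision repair endonuclease that also acts as a redox factor for transcription factors. Transfection was transient with a vector that also encodes a green fluorescent protein, and the sources used here do not give the share of cells that took up the plasmid. Values of single libraries are listed below in the order of the replicate numbers 1, 2 and 3. Total counts were 28987040, 41009197 and 35234411 in APEX1-OE, and 28131955, 34398771 and 35834880 in Ctrl. The paper says that experiments were done 3 times, but not whether these replicates came from separate cultures, so the p-values measure the spread between these libraries, which may be technical.

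NKG2D is an activating receptor of natural killer cells and of cytotoxic T cells, encoded by KLRK1, and it signals through the adaptor HCST. Its ligands are distant relatives of the MHC class I heavy chain that healthy cells mostly keep at low levels and that stressed, infected or transformed cells display. MICA and MICB span the membrane and are encoded in the MHC, whereas the ULBP and RAET1 proteins lack the membrane-proximal domain of MICA and MICB and many of them are held by a GPI anchor. RAET1L is also known as ULBP6, RAET1E as ULBP4 and RAET1G as ULBP5.

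On the GRCh38 build, MICA (ENSG00000204520.12) lies on the plus strand at chr6:31399784-31415315 and MICB (ENSG00000204516.9) on the same strand at chr6:31494881-31511124. The other 6 ligands lie together on the long arm of chromosome 6, in a stretch of 185943 bases. In it, ULBP2 (ENSG00000131015.4) is on the plus strand at chr6:149942014-149949235 and RAET1L (ENSG00000155918.7) on the minus strand at chr6:150018334-150025532. RAET1L and ULBP2 form the closest pair of the family, with identical bases in 96.7% of the columns of their coding sequence alignment, gaps included. MICA and MICB followed with 78.6%, and RAET1L reached 77.4% with ULBP1 and 69.6% with RAET1G. Gaps lower this measure where coding sequences differ in length, as for RAET1G (1002 bases) and RAET1L (738) or MICA (996) and MICB (1149). Below the closest pair, the order is therefore that of this measure and not of the bases that align. Between the MIC genes and the other 6 ligands the identity was between 34.7% and 44.6%.

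**Figure D1:**
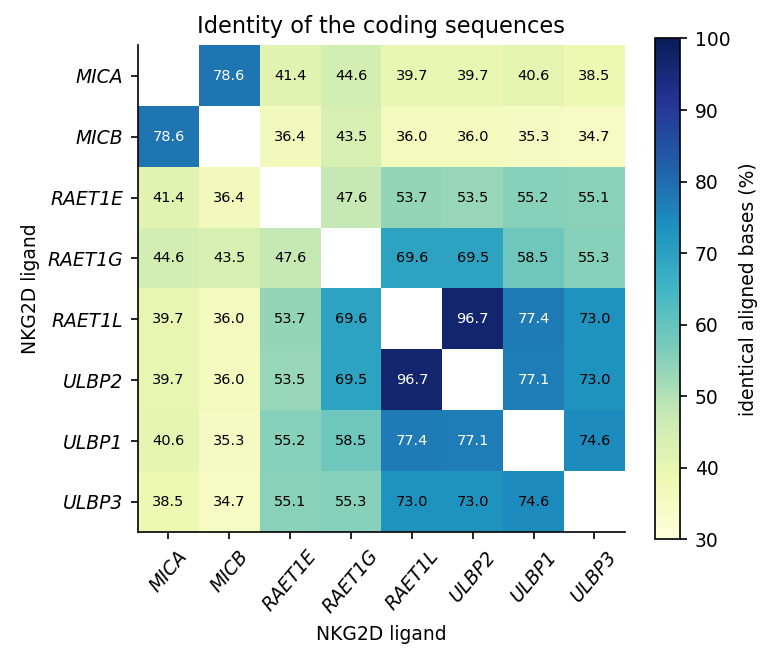
Percent of alignment columns, gaps included, with identical bases between the coding sequences of each pair of the 8 ligands, on both axes, with darker cells for higher identity. RAET1L and ULBP2 share 96.7%, and MICA and MICB share 78.6%.

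This likeness bears on the counts, because only uniquely mapped reads were counted. Of the 1197 windows of 150 bases in the RAET1L transcript, 48.7% came within 4 mismatches of the transcript of another family member, most often ULBP2, and 4.3% were identical to one. The share was 49.2% for ULBP2, 22.3% for RAET1G, 12.0% for MICA, 10.6% for MICB, 10.0% for ULBP1 and 6.5% for ULBP3, and no window of RAET1E came that close. The counts of RAET1L and ULBP2 are thus uncertain where reads could have been dropped or moved between the copies. On such reads the sources used here say only that uniquely mapped reads were counted.

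The upstream sequences of RAET1L and ULBP2 are shown because the coding sequences are nearly the same while the measured counts were not, and those of MICA and MICB because their values went together over the libraries. Each line gives the 250 bases before the start site, 5′ to 3′ on the strand of the gene, from RefSeq on GRCh38.p14. For MICA and MICB that start site lies inside the gene span given above, which comes from GENCODE and begins further upstream. The stretches are chr6:150025533-150025782 (minus strand), chr6:149941764-149942013 (plus), chr6:31403345-31403594 (plus) and chr6:31497895-31498144 (plus). Capitals mark matches to the motifs described after the sequences, and the last capitals of ULBP2 are the part of a match that continues past the start site.
RAET1L: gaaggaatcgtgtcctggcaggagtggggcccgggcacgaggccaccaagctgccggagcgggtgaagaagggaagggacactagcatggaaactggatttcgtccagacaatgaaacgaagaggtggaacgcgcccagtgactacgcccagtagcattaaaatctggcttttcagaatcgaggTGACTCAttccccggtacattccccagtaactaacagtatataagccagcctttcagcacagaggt
ULBP2: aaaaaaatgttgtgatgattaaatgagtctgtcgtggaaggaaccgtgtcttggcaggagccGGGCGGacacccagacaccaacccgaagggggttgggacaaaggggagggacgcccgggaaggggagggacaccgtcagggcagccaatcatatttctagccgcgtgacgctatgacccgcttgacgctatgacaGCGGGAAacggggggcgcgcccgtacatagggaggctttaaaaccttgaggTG
MICA: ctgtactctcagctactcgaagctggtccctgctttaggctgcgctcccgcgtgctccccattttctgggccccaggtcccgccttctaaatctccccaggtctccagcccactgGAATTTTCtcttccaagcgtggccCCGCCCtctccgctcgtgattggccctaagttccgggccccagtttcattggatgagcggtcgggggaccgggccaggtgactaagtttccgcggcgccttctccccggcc
MICB: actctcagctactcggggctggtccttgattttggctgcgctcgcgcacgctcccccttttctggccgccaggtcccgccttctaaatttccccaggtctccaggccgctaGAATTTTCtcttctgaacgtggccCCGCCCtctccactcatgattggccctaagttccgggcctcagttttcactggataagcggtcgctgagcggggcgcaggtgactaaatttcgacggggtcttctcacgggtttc

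The letters searched on both strands, in the 300 bases from 250 before to 50 after the start, were GGGCGG (GC box), GAANNTTC (core of the heat shock element), TGANTCA (AP-1) and GCGGGAA (core of the E2F site), and no match overlapped a match of another motif. All 8 ligands were found in the RefSeq table. The AP-1 letters stood in 4 of the 8 ligands, namely RAET1L, ULBP2, ULBP3 and one of the 3 start sites of RAET1E, and in 7.7% of the 35116 promoters of the table. In RAET1L the match was TGACTCA with its first base at -66 from the start, and no other of these motifs was found in that window. The GC box stood in 6 of the 8 ligands and in 45.0% of all promoters. The heat shock core stood in MICA at -135 and in MICB at -139, with the letters GAATTTTC in both, and in 6.8% of all promoters, whereas the E2F core was found in ULBP2 alone among the ligands, at -53, and in 6.6% of all promoters. These are matches of letters and not evidence of binding.

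Before the ligands were compared, the labels were checked on APEX1 itself. The normalized counts of APEX1, scaled to the library size as CPM, were 1270, 1190 and 1300 in APEX1-OE and 244, 243 and 214 in Ctrl. APEX1 rose in APEX1-OE, with a log2 fold change of 2.42 ± 0.171 (SE) and an adjusted p of 0.00809 (edgeR quasi-likelihood F-test, Benjamini-Hochberg over 16971 genes), and the 2 conditions did not overlap. The adjusted p was no longer under 0.05 without APEX1-OE replicate 2 or 3 or without Ctrl replicate 1 or 2, while the log2 fold change stayed between 2.36 and 2.46 with any library left out. The plasmid carries the APEX1 coding sequence, so APEX1 RNA from the plasmid and from the chromosome is counted together.

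A second difference between the libraries did not follow the conditions. On the first principal component of log2 CPM, which held 72.6% of the variance, APEX1-OE replicate 1 lay on one side with Ctrl replicates 1 and 2 (side A), and APEX1-OE replicates 2 and 3 lay on the other side with Ctrl replicate 3 (side B). The sides were defined from the data and no label explains them. They are unequally filled by the conditions, with 1 APEX1-OE library of 3 on side A and 2 of 3 on side B, and the ligand values are therefore also given within each side and from a fit with the side as a term. The standard errors and p-values of that fit take the sides as known, although these came from the same counts, and may be too small.

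The identity of the cells was checked on marker genes. The 8 markers of A549 cells summed to between 713244 and 881814 counts per library, and KRT8, an epithelial keratin, was the most abundant. EPCAM, an epithelial adhesion molecule in that list, was low, with 15 to 47 counts per library. Of the 11 markers of natural killer and T cells 10 were matched, and they summed to 75, 61 and 65 counts in APEX1-OE and to 51, 60 and 58 counts in Ctrl. CD8A was the most abundant of them with 22 to 41 counts, and 5 of the 10 had 3 counts or fewer in every library, among them the pan-leukocyte marker PTPRC and the T cell receptor component CD3E. The receptor gene KLRK1 had 4, 2 and 10 counts in APEX1-OE and 1, 2 and 3 counts in Ctrl, so the RNA of the receptor was near 0 in these cultures. The adaptor gene HCST was also low but above KLRK1 in most libraries, with 26, 21 and 10 counts in APEX1-OE and 22, 24 and 15 counts in Ctrl. The 4 fibroblast markers summed to 148 to 276 counts, with COL1A1 the most abundant, and the 4 macrophage markers to 94 to 115 counts, with CD68 the most abundant.

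The level of each ligand was described first, on the deposited FPKM scale, which divides by transcript length and allows genes to be compared. MICA was the highest, with an FPKM of 11.05, 9.63 and 9.86 in APEX1-OE and of 9.64, 10.47 and 7.67 in Ctrl. Its mean over the 6 libraries was 9.72 ± 1.15 (SD, n = 6), and 86.3% of the 31951 genes of the FPKM table had a lower mean. Alternate contigs of the MHC can take reads of MICA and MICB, and the sources used here do not say whether the authors' genome held them, so the levels of both may be affected. RAET1G came next, at 8.91, 7.06 and 8.14 in APEX1-OE and 9.72, 10.01 and 6.63 in Ctrl. These were the most abundant of the ligands under either plasmid, and the conditions overlapped for both. MICB had a mean FPKM of 5.03 ± 0.804, RAET1E of 3.16 ± 0.297 and ULBP2 of 1.83 ± 0.139 (SD, n = 6 for each).

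The other 3 ligands had a mean FPKM below 1. RAET1L stood at 0.82, 0.67 and 0.62 in APEX1-OE and at 0.37, 0.33 and 0.23 in Ctrl. ULBP3 had a mean FPKM of 0.308 ± 0.087 and ULBP1 of 0.183 ± 0.0692 (SD, n = 6), the lowest of the family, and 47.8% of the genes of the table had a lower mean than ULBP1. ULBP1 and ULBP3 rest on few counts, between 11 and 42 and between 6 and 17 per library.

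The order of the levels was compared between neighbours with an exact paired permutation test (two-sided sign flips of the difference in log2(FPKM + 0.1), 7 pairs). RAET1G lay above MICB by 0.73 ± 0.18 (SD, n = 6 libraries) on that log2 scale, MICB above RAET1E by 0.64 ± 0.34, RAET1E above ULBP2 by 0.75 ± 0.14, ULBP2 above RAET1L by 1.76 ± 0.55 and ULBP3 above ULBP1 by 0.54 ± 0.33. In these 5 pairs the order held in 6 of 6 libraries, with an exact p of 0.0312 each, the smallest that sign flips of 6 libraries can give, and a p of 0.0437 after Benjamini-Hochberg adjustment over the 7 pairs (exact test). MICA and RAET1G did not pass the test (difference 0.21 ± 0.17, MICA higher in 5 of 6 libraries, adjusted exact p = 0.0729). RAET1L and ULBP3 did not pass either (0.51 ± 0.55, RAET1L higher in 4 of 6 libraries, adjusted exact p = 0.125), and the 2 libraries with ULBP3 above RAET1L were Ctrl replicates 2 and 3. The pairs were set by the mean FPKM of these same libraries, so the p-values describe the order on that scale only. The order depends on the transcript length that is used. With CPM per kilobase of annotated exon in place of the FPKM, RAET1G came above MICA, ULBP2 above RAET1E and ULBP1 above ULBP3, with means of 10.4 and 7.46, 2.28 and 1.38, and 0.218 and 0.119, respectively.

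**Figure D2:**
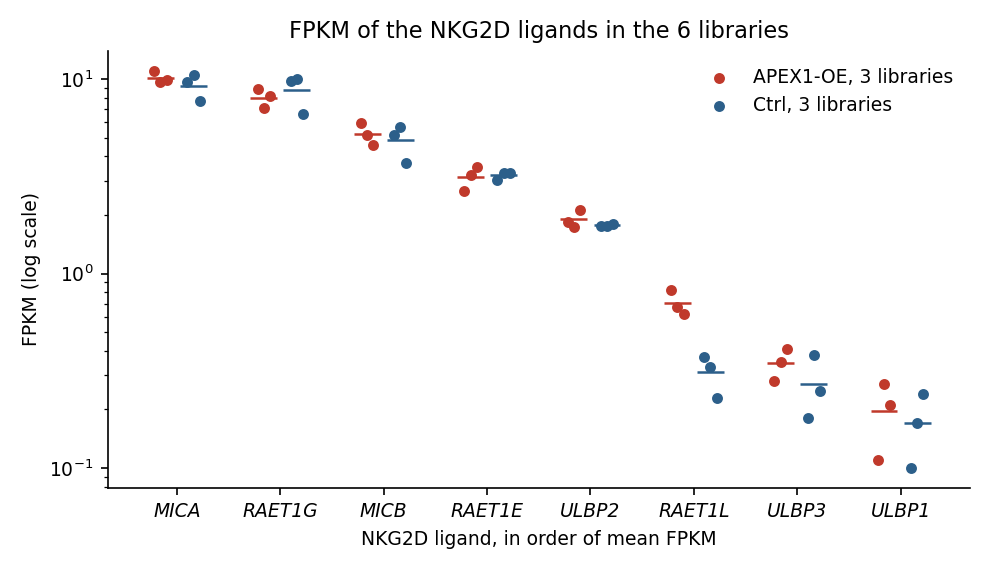
FPKM of the 8 ligands on a log axis, in order of their mean, with 1 point per library (red for APEX1-OE, blue for Ctrl, 3 each) and a line at the mean of each condition. The points of the conditions overlap for 7 ligands, and for RAET1L the APEX1-OE libraries lie between 0.62 and 0.82 and the Ctrl libraries between 0.23 and 0.37.

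As a share of the summed FPKM of the family, MICA, RAET1G and MICB together made up between 75.6% and 82.0% in each library. The summed FPKM was 29.7 ± 1.78 in APEX1-OE and 28.6 ± 4.28 in Ctrl (SD, n = 3 each), and the conditions overlapped. RAET1L contributed 2.59%, 2.39% and 2.11% of the sum in APEX1-OE and 1.24%, 1.03% and 0.965% in Ctrl. The ligand for which the conditions stood apart was thus a minor share of the ligand RNA in every library. Counts are of RNA, and protein at the cell surface was not analysed here.

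In the comparison of APEX1-OE with Ctrl, all 8 ligands passed the filter on low counts, and 0 of 8 had an adjusted p under 0.05 in the quasi-likelihood F-test of edgeR, against 1 of 16971 genes (0.00589%) called in all, which was APEX1. DESeq2 also called 0 of the 8 ligands and 1 gene in all. In simulated data 7 of 50 genes with a true log2 fold change of 1 were called, so a ligand that is not called may still differ by as much. At an unadjusted p under 0.05 there were 1 of 8 ligands and 118 of 16971 genes (0.695%), and with the library side as a term the number of genes was 1973. The CPM of the 2 conditions did not overlap, with APEX1-OE higher, in 1 of 8 ligands and in 235 of 16971 genes (1.38%). That ligand was RAET1L in both counts, and since the contrast was used to choose the family nothing is read from them. With the library side as a term 0 of 8 ligands and 4 of 16971 genes (0.0236%) were called. The median log2 fold change was 0.11 over the 8 ligands and 0.03 over all tested genes, and 0.21 and 0.01 with the side as a term. Above 0 lay 6 of the 8 ligands and 9759 of the 16971 genes, and 6 and 8750 with the side as a term. The sign turned in at least 1 of 13 alternative settings for MICA, MICB, ULBP1, ULBP2 and RAET1G.

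RAET1L had 40, 45 and 35 counts in APEX1-OE and 17, 19 and 14 counts in Ctrl. After normalization its CPM was 1.52, 1.06 and 0.941 in APEX1-OE and 0.632, 0.577 and 0.357 in Ctrl. Every APEX1-OE library was above every Ctrl library. The mean CPM was 1.17 ± 0.305 in APEX1-OE and 0.522 ± 0.146 in Ctrl (SD, n = 3 each), and the fitted log2 fold change was 1.17 ± 0.335 (SE), a fold of 2.25. The summed counts were 120 in APEX1-OE and 50 in Ctrl. Within side A, RAET1L was higher in the APEX1-OE library than in the Ctrl libraries by 1.25 on the log2 CPM scale, and within side B by 1.35. The fit with the side as a term gave 1.39 ± 0.286 (SE). Since these are bulk libraries, more RNA per cell and more cells that express a gene cannot be told apart.

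**Figure D3:**
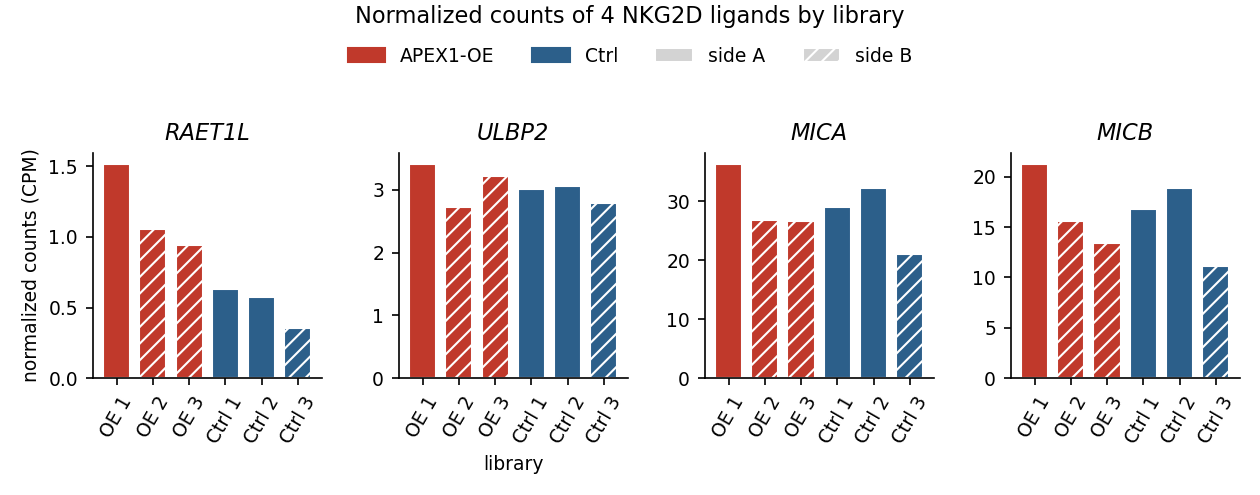
Normalized counts (CPM) of RAET1L, ULBP2, MICA and MICB in each library, as bars from 0, red for APEX1-OE (OE 1 to 3) and blue for Ctrl, plain for libraries of side A and hatched for side B. RAET1L lies between 0.941 and 1.52 in APEX1-OE and between 0.357 and 0.632 in Ctrl, while ULBP2 lies between 2.73 and 3.42 in all libraries, and MICA and MICB are higher on side A.

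ULBP2, the near copy of RAET1L, had 90, 116 and 120 counts in APEX1-OE and 81, 101 and 110 counts in Ctrl. Its CPM was 3.42, 2.73 and 3.23 in APEX1-OE and 3.01, 3.07 and 2.8 in Ctrl, and the conditions overlapped. The log2 fold change was 0.08 ± 0.221 (SE), within the spread between replicates. When the counts of RAET1L, ULBP2 and RAET1G were summed before the fit, the log2 fold change of the sum was -0.05 ± 0.266 (SE), and for the sum of all 8 ligands it was 0.05 ± 0.226 (SE). RAET1L makes up few of the counts in these sums.

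RAET1K is a transcribed pseudogene that lies between ULBP1 and RAET1L in the cluster, and its best local match with the RAET1L coding sequence was 72.1% identical over 792 columns. RAET1K had 13, 17 and 9 counts in APEX1-OE and 28, 22 and 12 counts in Ctrl. The log2 fold change was -0.81 ± 0.497 with the condition alone and -0.38 ± 0.395 with the side as a term (SE), with adjusted p-values of 1 and 0.735 from edgeR, and the conditions overlapped. RAET1L made up 75.5%, 72.6% and 79.5% of the counts of both genes in APEX1-OE and 37.8%, 46.3% and 53.8% in Ctrl. With both genes summed before the fit, the log2 fold change was 0.39 ± 0.38 (SE), and 0.71 with the side as a term. This sum and this share were chosen after the values were seen. Of the RAET1K windows of 150 bases 6.3% came within 4 mismatches of another family transcript, most often ULBP1, and whether reads moved between RAET1K and RAET1L was not tested.

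MICA and MICB went with the library sides. The CPM of MICA was 36.4, 26.8 and 26.7 in APEX1-OE and 29.1, 32.2 and 21.1 in Ctrl. For MICB it was 21.3, 15.6 and 13.4 in APEX1-OE and 16.8, 18.9 and 11.1 in Ctrl. In both genes the conditions overlapped over all libraries, while within each side every APEX1-OE library was above every Ctrl library. APEX1-OE was above Ctrl within both sides in 3 of 8 ligands, the third being RAET1L, and in 3016 of the 16971 genes (17.8%), overlapping over all libraries or not. The log2 fold change was 0.12 ± 0.248 for MICA and 0.10 ± 0.29 for MICB with the condition alone, and 0.29 ± 0.103 and 0.31 ± 0.121 with the side as a term (SE). Within side A the APEX1-OE library lay above the Ctrl mean by 0.25 for both genes on the log2 CPM scale, and within side B by 0.34 for MICA and 0.37 for MICB. Neither was called in either fit, and in the fit with the condition alone the direction of both turned without APEX1-OE replicate 1, to -0.05 and -0.12, and without Ctrl replicate 3, to -0.03 and -0.10.

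RAET1G also went with the sides. Its CPM was 18.3, 12.2 and 13.7 in APEX1-OE and 18.3, 19.2 and 11.4 in Ctrl, and the log2 fold change was -0.14 ± 0.285 with the condition alone, between -0.35 and -0.01 with each library left out, and 0.07 ± 0.12 with the side as a term (SE). RAET1E, by contrast, was nearly level, with a CPM between 9.34 and 10.8 in the 6 libraries and a log2 fold change of -0.06 ± 0.209 (SE). RAET1E and part of RAET1G lie opposite the antisense gene RAET1E-AS1 (ENSG00000268592.3), which had between 65 and 153 counts per library. The sources used here do not say whether the counting used the strand. Reads from any exon bases shared with the antisense gene may therefore not be told apart, and the overlap of the exons was not measured. ULBP1, at 13, 42 and 28 counts in APEX1-OE and 11, 23 and 34 in Ctrl, had a log2 fold change of 0.18 ± 0.378 with the condition alone, between -0.08 and 0.43 with each library left out, and -0.06 ± 0.32 with the side as a term. It went with the sides in the opposite direction to RAET1G, with a CPM of 0.494, 0.409 and 0.698 on side A and 0.989, 0.753 and 0.866 on side B, and a difference of 0.67 on the log2 CPM scale. ULBP3, at 10, 17 and 17 counts in APEX1-OE and 6, 16 and 11 in Ctrl, had 0.32 ± 0.376 and 0.35 ± 0.417 in the same fits (SE). The conditions overlapped in ULBP1 and in ULBP3.

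**Figure D4:**
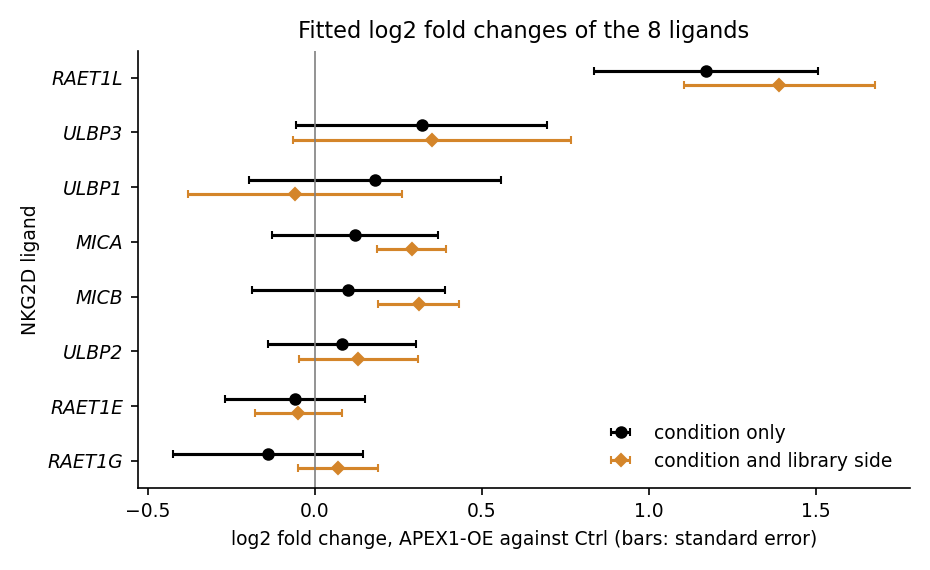
Fitted log2 fold changes of the 8 ligands in APEX1-OE against Ctrl, with bars of 1 standard error, for the condition alone (black circles) and with the library side as a term (orange diamonds). RAET1L lies at 1.17 and 1.39, and the other 7 ligands lie between -0.14 and 0.35 in both fits.

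The genes that flank the ligands did not pass the test. HLA-B, an MHC class I heavy chain that lies before MICA at a distance of 32717 bases, had a log2 fold change of 0.08 ± 0.228 (SE), and DDX39B, an RNA helicase gene after MICB, one of 0.00 ± 0.209. LRP11, before RAET1E, had 0.24 ± 0.329, and PPP1R14C, after ULBP3, had -0.17 ± 0.232. The adjusted p from edgeR was 1 for each of these 4 genes. With the side as a term the values were 0.24, 0.13, -0.05 and -0.12 in the same order, and the adjusted p lay between 0.37 and 0.891.

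The proteins that act on the ligands were described by lists. Of the 8 genes for shedding and surface processing, 0 were called by edgeR and 0 were at an unadjusted p under 0.05, 5 lay above 0 beside 9759 of the 16971 genes, and the median log2 fold change was 0.15 beside 0.03 for all genes. With the side as a term 3 lay above 0, beside 8750 of the 16971 genes, and the median was -0.12, so the direction of the list turned. ADAM10, a protease that cuts ligands from the cell surface, had a CPM of 37.6, 96.8 and 129 in APEX1-OE and 48.3, 48.3 and 101 in Ctrl. The libraries of side B were high and those of side A low, and the log2 fold change was 0.42 ± 0.474 with the condition alone and -0.09 ± 0.136 with the side as a term (SE). ADAM9, a related protease, showed the same split, from 54.5 to 76.9 CPM on side A and from 166 to 184 on side B. PDIA6, a disulfide isomerase that takes part in the shedding of MICA, had the highest mean FPKM of the list, 82.1, and a log2 fold change of -0.03 ± 0.229. MMP9, a secreted protease, was near the floor with 9 to 19 counts per library and had 0.41 ± 0.414 (SE). The values with the side as a term were -0.19 for PDIA6 and 0.54 for MMP9, and neither was called.

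Of the 5 GPI transamidase genes, which encode the complex that attaches the anchor, 0 were called and 0 were at an unadjusted p under 0.05. In this list 1 lay above 0, beside 9759 of the 16971 genes, and the median log2 fold change was -0.07. In the fit with the side 4 lay above 0, beside 8750 of the 16971 genes, and the median was 0.02. GPAA1 and PIGT had the highest mean FPKM of the list, 96.7 and 51.3, with log2 fold changes of -0.08 ± 0.313 and -0.01 ± 0.26, and PIGK, the catalytic subunit, had 0.20 ± 0.367 (SE). All 3 turned with the side as a term, to 0.18, 0.18 and -0.13, and none was called. ATR and ATM, kinases of the DNA damage response, a pathway known to raise NKG2D ligands after genotoxic stress, were not called and had log2 fold changes of 0.58 ± 0.502 and 0.50 ± 0.46 with the condition alone and of 0.07 ± 0.146 and 0.08 ± 0.131 with the side as a term (SE). PRKDC, which encodes the catalytic subunit of a related kinase, had 0.10 ± 0.362 with the condition alone and -0.24 ± 0.0915 with the side as a term, where the adjusted p was 0.374 from edgeR. DESeq2 called 0 genes in any of the lists.

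Of the 15 transcription and RNA regulators of the ligands, 0 were called by edgeR with the condition alone and 1 was at an unadjusted p under 0.05. Of these regulators 14 lay above 0, beside 9759 of the 16971 genes. The median log2 fold change was 0.05, beside 0.03 for all genes. With the side as a term 12 lay above 0, beside 8750 of the 16971 genes, and the median was 0.13. The gene at that threshold was JUN, a subunit of AP-1, with a CPM of 114, 93.5 and 66.0 in APEX1-OE and 60.5, 56.1 and 49.8 in Ctrl. The conditions did not overlap. Its log2 fold change was 0.71 ± 0.24 (SE, adjusted p = 1 from edgeR), and with the side as a term it was 0.82 ± 0.126 with an adjusted p of 0.0492 from edgeR, just under the threshold. The p-values of the fit with the side may be too small, since the sides were drawn from these same counts. FOS, its partner, had 0.29 ± 0.237 with the condition alone and 0.33 ± 0.173 with the side as a term, and was not called. The most abundant genes of the list were ATF4, an activator of ULBP1, and HSF1, the heat shock factor, with a mean FPKM of 178 and 69.6 and log2 fold changes of 0.02 ± 0.201 and 0.05 ± 0.31. DICER1, which processes microRNAs, had 0.41 ± 0.433 with the condition alone and 0.03 ± 0.111 with the side as a term (SE). ATF4 and HSF1 had 0.13 and 0.27 in that fit, and neither was called. The 4 genes called with the side as a term were APEX1, JUN, the interferon gene IFNL3 and the BMP antagonist GREM1, of which GREM1 was named after the values were seen.

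Among the ligands of other natural killer cell receptors, 8 of 9 genes passed the filter, 0 were called and 0 were at an unadjusted p under 0.05, and the median log2 fold change was 0.09. HLA-E, the ligand of the inhibitory receptor NKG2A, and PCNA, the replication clamp and a reported ligand of NKp44, had the highest mean FPKM of the list, 128 and 109, with log2 fold changes of 0.07 ± 0.202 and -0.16 ± 0.233 (SE). PVR, a ligand of the activating receptor DNAM-1, had 0.17 ± 0.179, and NCR3LG1, the ligand of NKp30, had 0.29 ± 0.368. HLA-E, PCNA, PVR and NCR3LG1 had 0.20, -0.28, 0.22 and 0.00 with the side as a term, and none was called. Of the 10 family pseudogenes and antisense genes, 5 were matched and 3 rows passed the filter, of which 0 were called and 0 were at an unadjusted p under 0.05. Besides RAET1K these were RAET1E-AS1, with a log2 fold change of -0.33 ± 0.23, and HCP5, a noncoding RNA between MICA and MICB, with 0.03 ± 0.273 (SE), and with the side as a term they had -0.41 and 0.18.

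**Figure D5:**
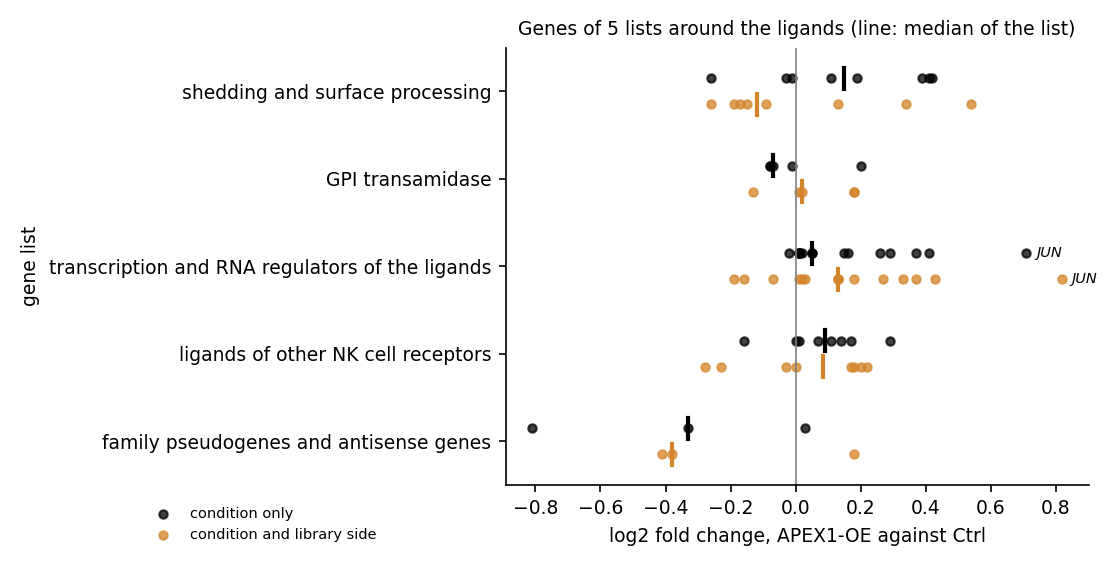
Log2 fold changes in APEX1-OE against Ctrl of the tested genes of 5 lists, 1 point per gene, for the condition alone (black) and with the library side as a term (orange), with a short line at the median of each list. JUN lies at 0.71 and 0.82, and the medians of 4 lists lie between -0.12 and 0.15 in both fits, while the list of pseudogenes and antisense genes has medians of -0.33 and -0.38 over 3 genes.

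Over the 6 libraries, the genes with profiles nearest to RAET1L, by the mean absolute difference between centred log2 CPM values, were RDH5 (0.114), IFNL3 (0.141) and FOSB (0.2). RDH5, a retinol dehydrogenase gene, had 12, 13 and 11 counts in APEX1-OE and 5, 7 and 4 in Ctrl. IFNL3, which encodes an interferon lambda, had 258, 282 and 243 counts in APEX1-OE and 128, 155 and 136 in Ctrl, and FOSB, an AP-1 subunit gene, had 143, 162 and 81 in APEX1-OE and 68, 67 and 66 in Ctrl. The genes nearest to MICA were RP11-287D1.3 (0.029), the zinc finger gene ZNF764 (0.0291) and PLAUR (0.0334), the urokinase receptor gene. The distances to MICA were smaller than those to RAET1L, whose counts are low. Likeness over 6 libraries is a description and carries no test.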

How the data were processed

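RNA was sequenced from 3 APEX1-OE and 3 Ctrl libraries of A549 cells, grouped by their labels. The libraries were stranded and read from both ends. The authors trimmed the sequencing reads, aligned these to GRCh38 with tophat2 allowing 4 mismatches, and deposited raw counts per gene of the uniquely mapped reads. The deposited FPKM values were also made by the authors, from the same uniquely mapped reads. The submitters' processing notes name bcl2fastq, TopHat2 and edgeR. The sources used here do not give the counting tool, the annotation release or the use of strand.

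Counts were analysed in R 4.3.3 with edgeR 4.0.16 (filterByExpr with a minimum count of 10 and a minimum total of 15, TMM, robust quasi-likelihood F-test, condition only, all 6 libraries, Benjamini-Hochberg at 0.05), which in simulated data called 10, 7, 44 and 46 of 50 genes at a true log2 fold change of -1, 1, -2 and 2, with 5 false calls. Of the 32192 genes 16971 were kept. Standard errors were the absolute log2 fold change divided by the square root of F. Total counts lay between 28131955 and 41009197. All pairs of replicates differed by more than sampling noise, the closest being Ctrl replicates 1 and 2 with a chi-square per degree of freedom of 3.63. FPKM levels were compared between neighbours in the order of their own means with exact sign flips on log2(FPKM + 0.1). Coordinates, coding sequences (global alignment) and exon lengths came from GENCODE release 44, which held 97.0% of the gene identifiers, and promoters from RefSeq.

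The members and lists were chosen with earlier results of these data known. Named were all 8 ligands, APEX1, the flanking protein-coding genes, the 3 genes nearest to RAET1L and to MICA, and from each list the called genes or else the 2 with the highest mean FPKM and the 2 with the largest absolute log2 fold change. One list and 1 of its genes are not reported here. RAET1F, RAET1M, MICC, MICF, MICG and GZMB were not matched and are not analysed here. Alternatives were relative log expression size factors, no filter on low counts, DESeq2 1.42.0, the replicate number as a block, the library side as a term, each library left out, other pseudocounts, CPM per kilobase of exon, and summed counts of related genes, of which the sum of RAET1L and RAET1K was added after seeing the data. Python 3.11.15 was used.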

Additional observations from a re-analysis of the deposited data

How the results depend on the processing

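Of 179 values from alternative settings, 153 kept their direction and side of the threshold or moved by less than the spread between replicates. For the order of FPKM levels these values are counts of pairs, so the 153 include CPM per kilobase of exon. The order itself was not the same in that setting. The number of genes called was 10 without the filter on low counts, 4 with the library side as a term and 0 to 1 with each library left out, and it was 0 ligands in each of these fits. The number at an unadjusted p under 0.05 moved far more, from 118 in the main fit to 1973 with the side, 1324 without APEX1-OE replicate 1 and 66 without APEX1-OE replicate 2, so the counts at that threshold in the lists hold for the main fit only. Among the pathway genes the number at that unadjusted threshold was 1 in the main fit and 9 with the side as a term. It was 3 without APEX1-OE replicate 1 and 0 without APEX1-OE replicate 2. With the side as a term 1 pathway gene was called, JUN. With each library left out the APEX1 log2 fold change lay between 2.36 and 2.46, and the adjusted p was above 0.05 in 4 of the 6 fits.

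The deviations from the condition means correlated at 0.607, -0.521 and 0.7 for replicate numbers 1, 2 and 3, and not every library correlated best with its own number. The signs of these correlations follow the library sides, so they cannot tell whether libraries of the same number were prepared together. With the replicate block 2 genes were called, and 561 genes were at an unadjusted p under 0.05.

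The log2 fold change of RAET1L lay between 0.94 and 1.31 with each library left out, and was 0.38 on log2(FPKM + 1), a scale that compresses low values. In 2 sums, by construction mostly counts of other genes, it was -0.05 for RAET1L, ULBP2 and RAET1G and 0.05 for all 8 ligands. ULBP2 alone had 0.08 and RAET1E alone -0.06. For RAET1L with RAET1K, of which RAET1L made up 37.8% to 79.5% in a library, the sum gave 0.39 or, with the side, 0.71. ULBP3 lay between 0.11 and 0.68 with each library left out, the highest without Ctrl replicate 2, and rests on 6 to 17 counts per library. In the order of FPKM levels, 0 of 7 pairs passed with any library left out, because 5 libraries allow no exact p under 0.0625. In each of those 6 fits 5 or 6 pairs kept 1 order in every library. RAET1L, ULBP1 and ULBP3 rest on the fewest counts.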
